A study of Mus musculus with 6 samples.

Results

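Transcripts of the tumour suppressor p53 and of 9 of its damage targets were followed in cochlear explants with and without neomycin. The 10 genes were chosen by symbol, as Trp53, which encodes p53, Mdm2, Bbc3, Pmaip1, Ccng1, Trp53inp1, Sesn1, Phlda3, Eda2r and Zmat3, and all 10 were found among the 24421 gene symbols of the count table. The choice used no measured value of the comparison, although earlier results of these data were known. The explants came from wild-type mice at postnatal day 2, and the labels name no strain. They were cultured for 12 h, and in the neomycin group an exposure of 6 h to neomycin at 1 mM followed, an aminoglycoside that is toxic to cochlear hair cells (HCs). All explants were then kept for another 5 days with EdU, a thymidine analog, at 10 μM, so the RNA shows the tissue long after the drug was added. The labels call 3 samples control and 3 neomycin and give the neomycin protocol for all 6, and the treatment label was followed, with controls read as explants not given the drug. Each sample pooled 6 to 8 cochleae from which, by the methods of the study, the modiolus, the tectorial membrane and the tissue that forms the stria vascularis had been removed, and nothing says whether the pools of a group came from separate litters or days, so that p-values measure the spread between these samples only.

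p53 is a transcription factor that is present in most cells at a low protein level, because the ubiquitin ligase Mdm2, itself a p53 target, marks it for destruction. After DNA damage and other stress, kinases such as ATM and changes in Mdm2 binding let the p53 protein accumulate, so that its activity is set mainly after transcription and is read from its targets rather than from Trp53 RNA. Some targets arrest the cell cycle, some trigger apoptosis and some feed back on p53 itself. In the cochlea, p53 has been studied as a mediator of HC death after ototoxic drugs.

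Total counts were between 50471116 and 66068108 per sample, and 15988 genes had enough counts to be tested. Values are CPM, counts of a gene per 1000000 counts of the library after TMM scaling, and the test throughout is edgeR's quasi-likelihood test with Benjamini-Hochberg adjustment over all genes tested, with SE for the standard error of a log2 fold change. At an adjusted p-value under 0.05, 16.1% of all genes tested were lower and 12.9% higher after neomycin. With a fold change over 1.5 as well, these shares were 6.60% and 2.24%. In 22.5% of the genes all 3 neomycin values lay below all 3 control values, and in 21.0% they lay above. The summed level of 12 HC markers was 729 to 840 CPM in control and 238 to 294 CPM after neomycin, with 11 of the 12 lower and none at 0 in all samples. Sums of 7 neuron markers were 104 to 179 and 71.6 to 81.9 CPM with 4 lower, and sums of 10 macrophage markers were 196 to 247 and 254 to 311 CPM with 4 higher and 1 lower. Of 7 endothelium markers 5 were lower, of 9 supporting cell markers 3 lower and 1 higher, of 9 mesenchyme markers 2 lower and 2 higher, and of 6 Schwann cell markers 2 lower. The sums of each of these lists overlapped between the groups. For endothelium they were 277 to 310 and 266 to 316 CPM, mostly from Emcn, at 252 ± 12.1 and 273 ± 26.2 CPM (SD, n = 3). In such bulk RNA, fewer cells of a type and less RNA per cell cannot be told apart. The part of these cell types in the values below was not tested.

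The fold changes of all genes also moved with transcript length. Below 2000 bases of annotated exon the median gene was at 0.26 on the log2 scale, and above 6000 bases at -0.16. For this reason a log2 fold change below is given with its value after a correction for exon length wherever the correction changed a call or a sign or moved the value by over 1.5 times, and for some others. What lies behind the length trend was not tested.

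Of the 10 genes, 4 fell after neomycin at an adjusted p-value under 0.05 (Zmat3, Eda2r, Mdm2 and Trp53inp1), 1 rose (Sesn1), and 5 did not pass (Trp53, Ccng1, Phlda3, Bbc3 and Pmaip1). This is 40% lower and 10% higher, beside 16.1% and 12.9% of all genes tested. Only Eda2r also passed the fold change of 1.5, past which 6.60% of all genes tested were lower and 2.24% higher. Of these 5 calls, 2 were left without control replicate 2 (Zmat3 and Sesn1), and 3 without neomycin replicate 1 or without neomycin replicate 2. The median log2 fold change of the 10 genes was -0.19, against 0.00 over all genes tested. The neomycin and control values did not overlap for 6 of them, 5 lower and 1 higher. Of all genes tested, 22.5% were lower and 21.0% higher without overlap. Both classic apoptosis triggers of the pathway, Bbc3 and Pmaip1, were among the genes that did not pass.

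**Figure D1:**
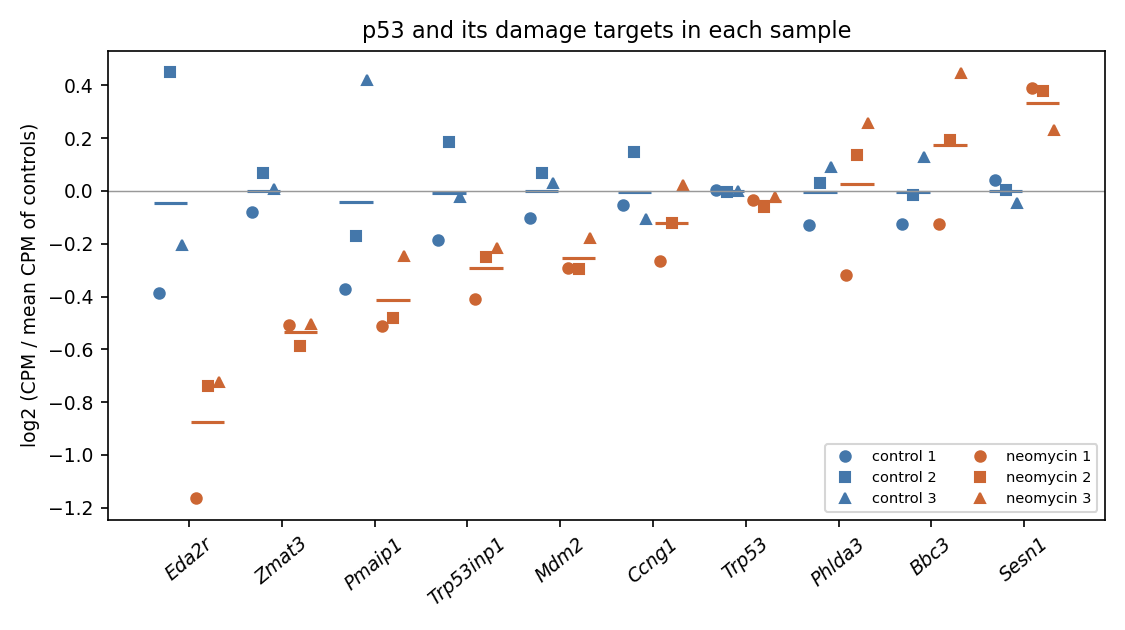
Level of each of the 10 genes in each sample, as log2 of its CPM over the mean CPM of the 3 controls (vertical axis); blue symbols are controls, orange symbols neomycin samples, symbol shapes the replicate numbers, and short lines the mean of the 3 plotted values. Zmat3, Eda2r, Mdm2 and Trp53inp1 lie lower after neomycin without overlap, and Sesn1 lies higher. The values of Trp53 also lie lower without overlap but are packed within a narrow band.

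p53 binds DNA as a tetramer, at a pair of copies of the p53 consensus decamer, which runs purine, purine, purine, C, A or T, A or T, G, pyrimidine, pyrimidine, pyrimidine and reads the same on both strands. The promoter windows of RefSeq (GRCm38.p6, the mm10 build), 250 bases before to 50 bases after each annotated start, were searched for it to show the kind of sequence that links these genes. Windows were found for 7 of the 10 genes, and Pmaip1, Trp53inp1 and Zmat3 were not matched. A perfect decamer was present for 4 of the 7 genes, against 9.55% of 27025 genes. A pair of decamers no more than 13 bases apart, each with its C and G in place and with up to 3 mismatches in all, was also present for 4 of the 7, against 17.4% of the genes. A match is a stretch of letters and not a measured site, and the pair search is loose.
The following matches are the best pair of each of the 4 genes with a pair and of Cdkn1a, a further target described below. They run 5′ to 3′ on the strand of the gene with each decamer in capitals. Other targets described below also had pairs that are not shown, such as Rps27l with 1 mismatch and Bax, Gadd45a and Ckap2 with 2.
Ccng1, chr11:40755462-40755481, minus strand, 1 mismatch: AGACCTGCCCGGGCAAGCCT
Sesn1, chr10:41887253-41887275, plus strand, 2 mismatches: GCGCTTGGCCttcAAGCTTGTTT
Bbc3, chr7:16309486-16309505, plus strand, 3 mismatches: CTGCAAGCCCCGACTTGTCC
Trp53, chr11:69580284-69580303, plus strand, 3 mismatches: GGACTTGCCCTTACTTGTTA
Cdkn1a, chr17:29090906-29090937, plus strand, 0 mismatches: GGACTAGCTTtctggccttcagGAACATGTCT
The full windows of Sesn1, which rose, and Mdm2, which fell, show where the matches sit, again with the decamers in capitals. The Sesn1 window belongs to the downstream of its 2 listed windows and holds the pair shown above, and the Mdm2 window holds a single perfect decamer.
Sesn1, chr10:41887189-41887488, plus strand: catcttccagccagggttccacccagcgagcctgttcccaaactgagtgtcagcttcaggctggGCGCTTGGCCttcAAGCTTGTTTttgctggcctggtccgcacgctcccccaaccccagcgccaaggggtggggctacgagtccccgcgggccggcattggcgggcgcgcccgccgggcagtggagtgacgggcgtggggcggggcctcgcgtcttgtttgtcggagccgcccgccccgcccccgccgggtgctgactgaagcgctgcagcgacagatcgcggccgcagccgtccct
Mdm2, chr10:117710709-117711008, minus strand: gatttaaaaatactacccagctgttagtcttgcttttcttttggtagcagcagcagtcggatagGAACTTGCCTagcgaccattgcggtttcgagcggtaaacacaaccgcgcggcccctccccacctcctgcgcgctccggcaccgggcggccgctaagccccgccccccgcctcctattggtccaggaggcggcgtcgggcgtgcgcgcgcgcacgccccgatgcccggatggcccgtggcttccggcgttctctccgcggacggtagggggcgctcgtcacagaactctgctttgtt
No decamer and no pair was found in the windows of Phlda3 and Eda2r. Mdm2 is known to have a second, p53-driven promoter within the gene, which this window does not cover.

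Trp53 itself lies on chromosome 11 from 69580359 to 69591873 of mm10. It was at 71.7, 71.3 and 71.6 CPM in the controls and at 69.8, 68.6 and 70.4 CPM after neomycin. The values are tightly packed, with an SD of 0.227 in control and 0.916 after neomycin (n = 3 each), and although the groups did not overlap the difference was small. The half-width of a sample's 95% exact Poisson interval, which covers counting error only, was 2.8% to 3.23% of its count. Within each group the values lay closer together than that. Neither the packing nor the lack of overlap is thus read as a property of Trp53. The log2 fold change was -0.04 (SE 0.06, adjusted p = 0.670, edgeR), and its 95% confidence interval covers a change from -11.7% to 7.05%. A processed pseudogene, Trp53-ps on chromosome 17, is annotated but has no row in the count table, and reads shared with it could have been dropped or divided. The ratio of another gene's counts to those of Trp53 within a sample needs no scaling of libraries. That Trp53 differed so little was itself read after TMM scaling, however. With total counts its log2 fold change was -0.11 (adjusted p = 0.231, edgeR). The ratios below are thus a description relative to Trp53 and no separate check of the scaling.

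Mdm2, the ubiquitin ligase that restrains p53 and closes its negative feedback loop, lies on chromosome 10 from 117688875 to 117710758. It was at 57.7, 64.9 and 63.3 CPM in the controls and 50.6, 50.5 and 54.7 CPM after neomycin. Every neomycin value was under every control value. Its log2 fold change was -0.26 (SE 0.07, adjusted p = 0.0221, edgeR), a decrease by 16.2% with an interval from -25.0% to -6.41%. There were 0.805, 0.910 and 0.883 Mdm2 counts for each Trp53 count in the controls and 0.724, 0.736 and 0.777 after neomycin. The call was lost when control replicate 2 (adjusted p = 0.102), neomycin replicate 1 (0.0569) or neomycin replicate 2 (0.103) was left out, and with the length correction it stood at -0.21 (adjusted p = 0.0499).

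Trp53inp1, a stress protein that activates p53 and takes part in autophagy, also feeds back on the pathway, and lies on chromosome 4 from 11156431 to 11174379. Its control values were 78.2, 101 and 87.5 CPM and its neomycin values 67.0, 74.7 and 76.6 CPM. The highest neomycin sample was thus just under the lowest control. Trp53inp1 fell by 0.29 on the log2 scale (SE 0.09, adjusted p = 0.0376, edgeR). This was the least secure of the 5 calls. With the length correction it was -0.19 (adjusted p = 0.171), and the adjusted p was 0.192 without control replicate 2, 0.0543 without control replicate 3, and 0.111, 0.0955 and 0.0529 without neomycin replicates 1, 2 and 3.

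Zmat3, also known as Wig1, encodes a zinc finger protein that binds RNA and is a direct p53 target. It lies on chromosome 3 from 32334792 to 32366014 and showed the most significant change of the 10 genes. Its level was 51.0, 56.5 and 54.2 CPM in the controls and 37.9, 35.9 and 38.0 CPM after neomycin. A clear gap separated the groups, and within each group the samples lay close together. The log2 fold change was -0.53 (SE 0.07, adjusted p = 0.000341, edgeR), a decrease by 30.9% with an interval from -38.0% to -22.9%. Relative to Trp53 the counts went from 0.710, 0.793 and 0.757 to 0.542, 0.523 and 0.540. Zmat3 has the longest exons of the group, with 11435 bases, and with the length correction its log2 fold change was -0.33 (adjusted p = 0.00954). When any sample was left out the uncorrected value stayed between -0.56 and -0.49, with adjusted p-values up to 0.00486.

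Eda2r encodes the receptor of the A2 isoform of ectodysplasin, a member of the tumour necrosis factor receptor family, and lies on the X chromosome from 97333840 to 97377216. Its values were 8.01, 14.3 and 9.09 CPM in the controls and 4.67, 6.27 and 6.33 CPM after neomycin. Control replicate 2 stood well above the other controls, and no neomycin sample reached the lowest control. The log2 fold change was -0.86 (SE 0.21, adjusted p = 0.00888, edgeR), a decrease by 44.9% with an interval from -59.5% to -25.0%. Without control replicate 2 the log2 fold change was -0.57 and the adjusted p 0.0505, so that the call and the size of the fall depended on that sample. With the length correction Eda2r was at -0.78 (adjusted p = 0.0149). The ligand gene Eda was at 12.7 ± 0.630 CPM in the controls and 10.5 ± 0.833 in the neomycin samples (SD, n = 3), which is -0.27 on the log2 scale (adjusted p = 0.0778, edgeR), or -0.17 with the length correction (adjusted p = 0.282).

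Sesn1 was the only one of the 10 genes that rose at this threshold. It encodes sestrin 1, a p53-induced protein that restrains mTORC1 signaling and limits oxidative stress, and lies on chromosome 10 from 41809935 to 41908424. The controls were at 32.8, 31.9 and 30.8 CPM and the neomycin samples at 41.7, 41.4 and 37.4 CPM. The groups did not overlap. Sesn1 rose by 0.34 on the log2 scale (SE 0.08, adjusted p = 0.00762, edgeR), an increase by 26.2% with an interval from 12.3% to 41.9%. There were 0.457, 0.448 and 0.430 Sesn1 counts for each Trp53 count in control and 0.598, 0.604 and 0.531 after neomycin. The length correction left it at 0.32 (adjusted p = 0.00667), and without any one sample it stayed between 0.31 and 0.39 with adjusted p-values up to 0.0461.

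The other sestrins went the other way. Sesn2, a further stress-induced sestrin, was at 19.8, 20.6 and 22.0 CPM in control and 15.5, 16.2 and 15.9 CPM after neomycin, again without overlap (log2 fold change -0.39, SE 0.09, adjusted p = 0.00718, edgeR). Sesn3, which FOXO factors induce, was at 18.4, 15.7 and 13.8 CPM and at 12.8, 9.86 and 11.6 CPM (log2 fold change -0.48, SE 0.13, adjusted p = 0.0170, edgeR). The fall of Sesn3 was -0.23 with the length correction (adjusted p = 0.143), and leaving out control replicate 1, control replicate 2 or neomycin replicate 2 gave adjusted p-values of 0.0728, 0.0525 and 0.0888. The confidence intervals of Sesn1, from 0.168 to 0.505 on the log2 scale, and of Sesn2, from -0.585 to -0.197, lay on opposite sides of 0, while the difference between them was not tested.

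Ccng1, which encodes cyclin G1, a p53 target that recruits a phosphatase to Mdm2, lies on chromosome 11 from 40748552 to 40755311 and was the most abundant of the 10 genes. It was at 210, 241 and 202 CPM in control and 181, 200 and 221 CPM after neomycin. The groups overlapped widely. Ccng1 had a log2 fold change of -0.12 (SE 0.09, adjusted p = 0.366, edgeR), with an interval from -19.9% to 5.99%.

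Phlda3, a small protein that competes with the kinase AKT for membrane lipids, lies on chromosome 1 from 135766119 to 135769136. It was at 43.6, 48.8 and 50.8 CPM in control and at 38.3, 52.5 and 57.0 CPM after neomycin. The neomycin samples covered the whole range of the controls and more, with an SD of 9.78 against 3.73 CPM. Its log2 fold change was 0.05 (SE 0.12, adjusted p = 0.802, edgeR), within an interval from -14.1% to 24.3%. Phlda3 has the shortest exons of the group, with 1559 bases, and its sign turned with the length correction (-0.20, adjusted p = 0.151), with total count scaling and without control replicate 1, neomycin replicate 2 or neomycin replicate 3, so that no direction can be given.

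Bbc3, which encodes the BH3-only killer PUMA, lies on chromosome 7 from 16308393 to 16318205. Its values were 12.5, 13.5 and 14.9 CPM in control and 12.5, 15.6 and 18.6 CPM after neomycin. The lowest values of the groups were alike, and the highest neomycin sample lay above all controls. Bbc3 had a log2 fold change of 0.19 (SE 0.14, adjusted p = 0.313, edgeR), with an interval from -6.95% to 40.4%, and 0.03 with the length correction (adjusted p = 0.902).

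Pmaip1, which encodes NOXA, the other BH3-only protein of the pathway, lies on chromosome 18 from 66458533 to 66465565. It was the scarcest of the 10 genes, with 53, 46 and 75 counts in control and 37, 42 and 45 after neomycin. These counts correspond to 0.768, 0.882 and 1.33 CPM and to 0.697, 0.712 and 0.838 CPM. The lowest control lay inside the neomycin range. The log2 fold change of -0.41 (SE 0.35, adjusted p = 0.407, edgeR) had an interval from -55.3% to 27.3%, so that even a sizeable change could have gone undetected. How much of this width came from low counts and how much from the spread between replicates was not tested. Counting error alone puts control replicate 1 between 39.7 and 69.3 counts (95% exact Poisson interval), which covers neither biological nor preparation error.

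**Figure D2:**
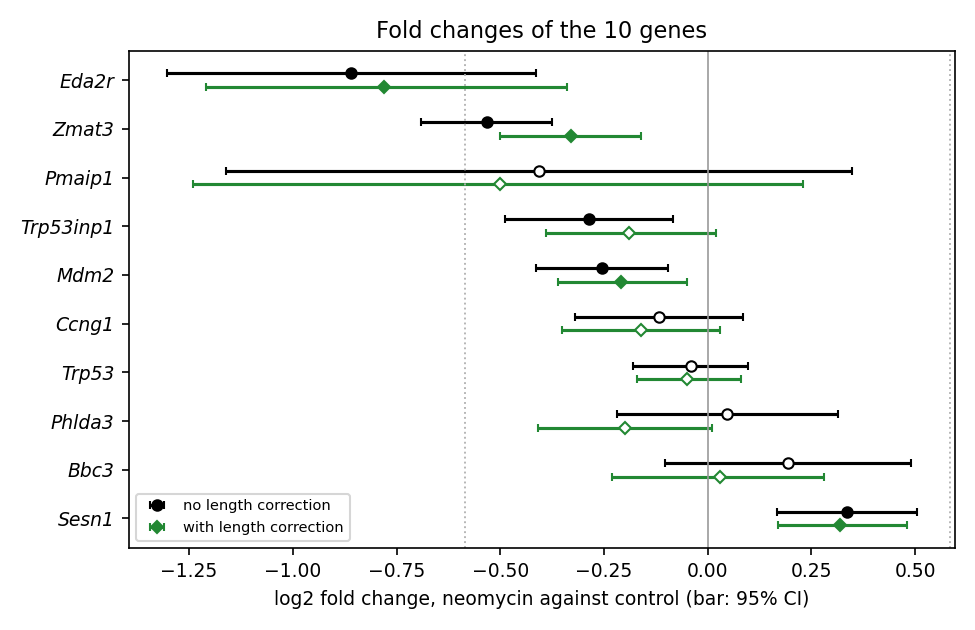
Log2 fold change of each gene between neomycin and control with its 95% confidence interval, from the fit without (black circles) and with (green diamonds) a correction for exon length; filled symbols have an adjusted p-value under 0.05 and dotted lines mark a fold change of 1.5. Eda2r, Zmat3, Mdm2 and Sesn1 are filled in both fits, while Trp53inp1 is filled only without the correction and Phlda3 changes side.

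To compare genes with each other, CPM was divided by exon length in kilobases. In the controls the order was Ccng1 (62.0 ± 5.88 CPM per kb), Phlda3 (30.6 ± 2.39), Trp53 (17.7 ± 0.0561), Trp53inp1 (13.7 ± 1.75), Mdm2 (12.2 ± 0.739), Sesn1 (7.99 ± 0.250), Bbc3 (6.41 ± 0.552), Zmat3 (4.71 ± 0.245), Eda2r (1.78 ± 0.573) and Pmaip1 (0.364 ± 0.110), each as mean and SD of 3 samples. After neomycin the order was the same. Within a group, neighbours in this order did not overlap, with the exceptions of Trp53inp1 and Mdm2, which overlapped in both groups, and of Mdm2 and Sesn1, which overlapped after neomycin at 10.2 ± 0.467 and 10.1 ± 0.613 CPM per kb. Of the apoptosis genes, Bbc3 ranked just below Sesn1, and Pmaip1 came last. The lengths are those of all annotated exons together, and a transcript that uses only some of them has a higher level than shown.

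**Figure D3:**
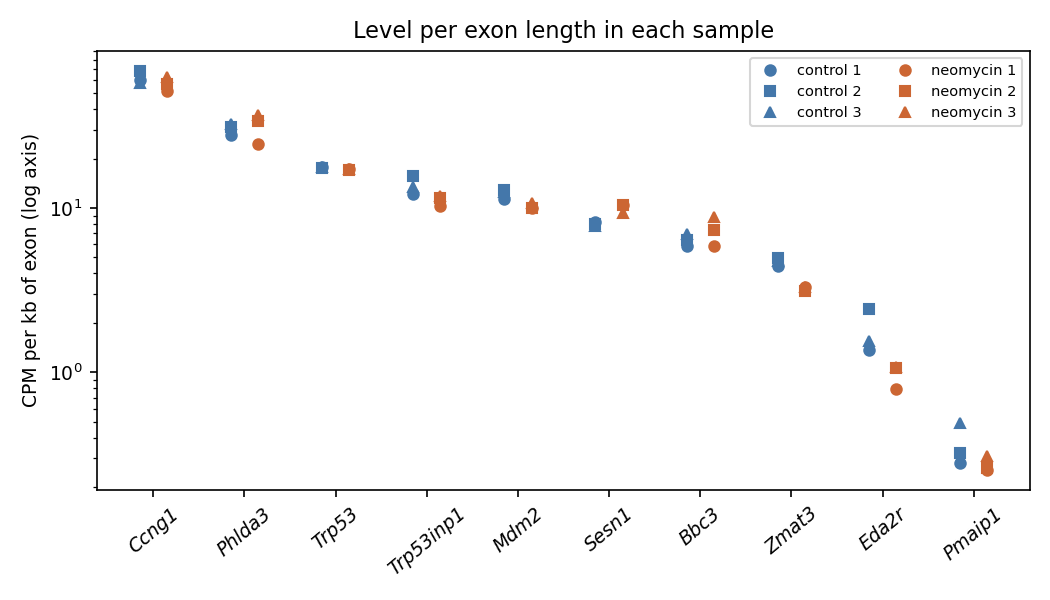
Level of each gene in each sample in CPM per kilobase of exon, on a log axis, with controls in blue and neomycin samples in orange. Ccng1 lies highest and Pmaip1 lowest in both groups, and the order of the group means does not change.

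The replicates did not all sit alike in the range of their group. Among the neomycin samples, replicate 3 was the highest for 9 of the 10 genes, with Sesn1 as the exception, and replicate 1 the lowest for 6. Among the controls, replicate 1 was the lowest for 7 and replicate 2 the highest for 5. How often each replicate was highest or lowest over all genes was not counted, so this may not be particular to the 10 genes. Among 14035 other genes with a mean of at least 1 CPM, the profile of Trp53 over the 6 samples was closest to that of Fgd5, Stam2 and E230025N22Rik (Pearson r = 0.996, 0.984 and 0.982 of log2 CPM), and that of Eda2r to Larp4, Edrf1 and B4galt6 (0.998, 0.994 and 0.993). The log2 fold changes of Fgd5, Stam2 and E230025N22Rik were -0.97, -0.14 and -2.87, beside -0.04 for Trp53. Those of Larp4, Edrf1 and B4galt6 were -0.28, -0.26 and -0.25, beside -0.86 for Eda2r. A high r is thus no sign of a change of like size. In all, 68 genes for Trp53 and 91 for Eda2r exceeded an r of 0.95. These likenesses come from 6 values that share libraries and the group difference, and are a description only.

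Beyond the 10 genes, 39 other p53 targets from general knowledge were measured, and all were tested. Of these 9 fell and 4 rose at an adjusted p-value under 0.05, and 26 did not pass. This is 23.1% lower and 10.3% higher, beside 16.1% and 12.9% of all genes tested, and the median log2 fold change was -0.12. Past a fold change of 1.5 as well, 4 were lower and 0 higher, by edgeR and by DESeq2. Of all genes tested, 6.60% were lower and 2.24% higher past both thresholds by edgeR. At an unadjusted p under 0.05, 4 were lower and 0 higher past that fold, a threshold at which no share of all genes was taken. Cdkn1a, the cell cycle inhibitor p21 and the best known p53 target, was at 174 ± 15.6 CPM without and 177 ± 16.6 CPM with neomycin (SD, n = 3). It differed by 0.02 on the log2 scale (adjusted p = 0.868, edgeR), within an interval from -0.17 to 0.22. Its sign turned under total count scaling, with the length correction, and without control replicate 1 or neomycin replicate 3, so it has no direction here. The pair of Cdkn1a with 0 mismatches shown above lies in its window at chr17:29090729-29091028, while its window at chr17:29093519-29093818 holds no match. Bax, the pore-forming apoptosis effector, was at 73.2 ± 9.80 and 89.4 ± 9.50 CPM, with a log2 fold change of 0.29 that just missed the threshold (adjusted p = 0.0516, edgeR). With DESeq2 the adjusted p of Bax was 0.0288, and with the length correction its log2 fold change was 0.05 (adjusted p = 0.648). Without control replicate 3 or neomycin replicate 1 the adjusted p of Bax was 0.00836 or 0.0193. It was 0.163 or 0.146 without control replicate 1 or 2, and 0.154 or 0.185 without neomycin replicate 2 or 3.

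The targets that fell past the fold change of 1.5 were Lif, a cytokine, Plk3, a stress-responsive kinase, Ak1, which interconverts adenine nucleotides, and Ckap2, a spindle protein. Lif went from 10.9 ± 3.43 to 5.81 ± 1.66 CPM (log2 fold change -0.90, adjusted p = 0.0114, edgeR) and Plk3 from 4.70 ± 0.422 to 2.68 ± 0.828 CPM (-0.81, adjusted p = 0.0164). Ak1 went from 16.1 ± 1.44 to 9.93 ± 0.777 CPM (-0.70, adjusted p = 0.000947) and Ckap2 from 13.2 ± 1.99 to 8.57 ± 1.57 CPM (-0.62, adjusted p = 0.00992). For all 4 the groups did not overlap. Among the smaller falls, Btg2, an antiproliferative gene, went from 65.6 ± 7.24 to 46.0 ± 1.99 CPM (-0.51, adjusted p = 0.00137), and Psrc1, another spindle gene, from 12.1 ± 1.79 to 8.36 ± 1.37 CPM (-0.53, adjusted p = 0.0192). Ephx1 and Trp53i11, with Sesn2 above, made up the 9, at -0.34 (adjusted p = 0.0447) and -0.27 (adjusted p = 0.0371). With the length correction Ephx1 was at -0.53 (adjusted p = 0.00148). Ckap2 and Psrc1 serve mitosis. A list of 10 mitosis genes had 5 lower and 0 higher, which is 50% lower beside 16.1% of all genes tested. Its sums were 178 to 223 CPM in control and 156 to 191 CPM after neomycin and overlapped. Whether the falls of Ckap2 and Psrc1 have to do with cell division was not tested.

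None of the 4 targets that rose passed a fold change of 1.5. Rps27l, a ribosomal protein of the p53 response, rose by 0.41 on the log2 scale (adjusted p = 0.0267, edgeR), Trp53i13 by 0.37 (adjusted p = 0.0265), Gadd45a, a growth arrest gene, by 0.35 (adjusted p = 0.0429), and Perp, which serves cell adhesion and apoptosis, by 0.30 (adjusted p = 0.0239). None of these 4 passed with the length correction, where the values were 0.05, 0.21, 0.14 and 0.11 with adjusted p-values of 0.699, 0.122, 0.326 and 0.360. In that fit 10 of the 39 targets were lower at an adjusted p-value under 0.05 and no target was higher. The share of all genes at this threshold alone was not taken in that fit. Past a fold change of 1.5 as well, 5 of the targets were lower and 0 higher. Of the 15824 genes in that fit, 932 were lower and 234 higher past both thresholds. Rps27l, Gadd45a, Ephx1 and Trp53i11 lay outside the rule for named genes and were named after their values were seen.

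Most of these calls were lost when single libraries were left out, often for any of several libraries. Without control replicate 2 the adjusted p-values were 0.0609 for Ckap2, 0.0710 for Lif, 0.0676 for Plk3, 0.0957 for Psrc1, 0.131 for Ephx1, 0.0635 for Perp, 0.117 for Trp53i13, 0.0508 for Rps27l and 0.0704 for Gadd45a. Without neomycin replicate 2 they were 0.0612 for Lif, 0.0756 for Plk3, 0.0660 for Psrc1, 0.143 for Ephx1, 0.103 for Trp53i11, 0.0665 for Trp53i13, 0.112 for Rps27l and 0.114 for Gadd45a. Without neomycin replicate 3 they were 0.122 for Perp, 0.119 for Trp53i13, 0.0982 for Rps27l, 0.160 for Gadd45a and 0.141 for Trp53i11. Without neomycin replicate 1 they were 0.0559 for Psrc1 and 0.139 for Ephx1, without control replicate 1 they were 0.0721 for Rps27l, 0.134 for Gadd45a and 0.137 for Trp53i11, and without control replicate 3 they were 0.143 for Ephx1 and 0.0890 for Trp53i11. Ak1, Btg2 and Sesn2 passed when any single sample was left out. Past the fold change of 1.5, 1 of the 39 targets was called without control replicate 2, and 2 without neomycin replicate 2.

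**Figure D4:**
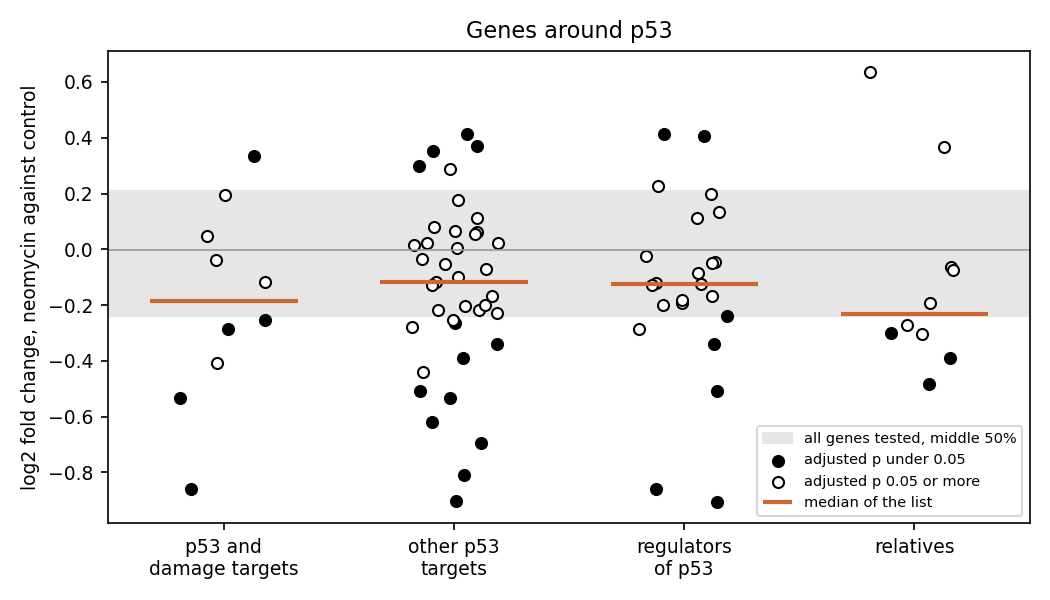
Log2 fold change between neomycin and control of each tested gene of the 4 groups (points; filled at an adjusted p-value under 0.05), with the median of each group as an orange line and the middle 50% of all genes tested in grey. The medians are -0.19 for p53 and its damage targets, -0.12 for the other targets, -0.13 for the regulators and -0.23 for the relatives.

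Of 23 regulators and partners of p53, 5 fell and 2 rose at an adjusted p-value under 0.05, with a median log2 fold change of -0.13. This is 21.7% lower and 8.70% higher, beside 16.1% and 12.9% of all genes tested. Hipk2, a kinase that phosphorylates p53, went from 9.03 ± 2.69 to 4.83 ± 0.844 CPM (log2 fold change -0.91, adjusted p = 0.00749, edgeR). The acetyltransferase Crebbp went from 18.7 ± 4.15 to 10.3 ± 2.27 CPM (-0.86, adjusted p = 0.00420), and its relative Ep300 from 49.6 ± 8.10 to 34.9 ± 1.90 CPM (-0.51, adjusted p = 0.00466). Both acetyltransferases modify p53 and serve as its coactivators, and the groups did not overlap for either. With the length correction Hipk2 was at -0.73 (adjusted p = 0.0159), Crebbp at -0.62 (adjusted p = 0.00790) and Ep300 at -0.26 (adjusted p = 0.0224). Rchy1, which encodes Pirh2, a further ubiquitin ligase of p53, was the clearest rise, from 44.9 ± 2.25 to 59.5 ± 2.72 CPM (0.41, adjusted p = 0.00188).

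The damage kinase Atm was at 22.6 ± 1.87 and 17.9 ± 0.0450 CPM (-0.34, adjusted p = 0.0161, edgeR) and the p53-binding protein Trp53bp1 at 77.4 ± 4.23 and 65.6 ± 4.84 CPM (-0.24, adjusted p = 0.0349). Neither passed with the length correction, at -0.15 (adjusted p = 0.204) and -0.001 (adjusted p = 0.994). Rpl11, a ribosomal protein that binds Mdm2, was at 737 to 934 CPM in control and 919 to 1190 CPM after neomycin (0.41, adjusted p = 0.0216), with overlapping groups. Ribosomal protein genes have many processed pseudogenes, and whether reads shared with them entered this count was not tested. Mdm4, the partner of Mdm2, was at 75.2 ± 7.61 and 65.8 ± 1.94 CPM with an adjusted p of 0.0919, and its value turned to 0.06 with the length correction. The adjusted p of Mdm4 was 0.0137 without control replicate 3, but 0.233 and 0.316 without control replicates 1 and 2. It was 0.104, 0.254 and 0.19 without neomycin replicates 1, 2 and 3. Without control replicate 1 the adjusted p-values of Atm, Trp53bp1 and Rpl11 were 0.0584, 0.127 and 0.0658, without control replicate 2 they were 0.0696, 0.0847 and 0.0872, and without neomycin replicate 2 they were 0.0625, 0.132 and 0.109. Without neomycin replicate 3 those of Trp53bp1 and Rpl11 were 0.14 and 0.0835.

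Among 12 genes related to the 10 by sequence or as ligand and receptor, 10 had enough counts to be tested. Trp63 and Trp73, the relatives of p53, were not, with at most 21 and 7 counts in any sample. Of the 10 tested, 3 fell and 0 rose at an adjusted p-value under 0.05, namely Sesn2 and Sesn3, described above, and Trp53inp2, an autophagy gene. This is 30.0% of the 10, beside 16.1% of all genes tested. Trp53inp2 was at 126 ± 15.9 CPM in the controls and 102 ± 9.15 in the neomycin samples (log2 fold change -0.30, adjusted p = 0.0366, edgeR), with overlapping groups. Leaving out control replicate 1 or 2 gave adjusted p-values of 0.144 and 0.104, leaving out neomycin replicate 2 or 3 gave 0.175 and 0.0722, and with the length correction it was -0.24 (adjusted p = 0.0608). Past a fold change of 1.5 there was no call among these 10, by edgeR or by DESeq2, nor at an unadjusted p under 0.05. Of all genes tested, 6.60% were lower and 2.24% higher past both thresholds by edgeR. At an unadjusted p under 0.05 without the fold, 5 of the 10 were lower and 0 higher, and no share of all genes was taken there.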

How the data were processed

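RNA from 3 control and 3 neomycin samples was sequenced. The authors called bases with CASAVA 1.8, trimmed reads with Trimmomatic 0.23, aligned them to mm10 with HISAT2 and deposited HTSeq counts per gene symbol, not normalized, for 24421 symbols. The strand setting and the treatment of reads with several matches are not given in the sources used here. The counts were scaled with TMM, filtered with filterByExpr and tested with edgeR 4.0.16 (quasi-likelihood test, R 4.3.3). Standard errors are the log2 fold change over the root of the F statistic. A gene was called at an adjusted p-value under 0.05, with a fold change over 1.5 where stated. Exon lengths and positions came from GENCODE vM21, which gave a length to 99.2% of the genes tested. The length correction removes from each sample the lowess trend (span 0.3) of its log2 ratio on exon length. Alternatives used DESeq2 1.42.0 and limma 3.58.1. The code was tested on simulated data. Figures were drawn with matplotlib 3.10.9.

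The 10 genes and the lists were chosen with earlier results of these data known. Named were the 10 genes, Cdkn1a and Bax, and in each list the genes past both thresholds and the 5 next by adjusted p-value, the 3 genes most like Trp53 and Eda2r, and the exceptions stated beside their values.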

Additional observations from a re-analysis of the deposited data

How the results depend on the processing

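The count of all differentially expressed genes, 1413, was 4629 with no fold change threshold and stayed within 1.5 times under every other alternative. Its higher calls, 358, were 233 with total counts, 234 with the length correction (with and without the replicate block) and 237 without control replicate 2. Of the 10 genes, 5 passed with no fold change threshold, 1 with it (Eda2r) and 2 when scaled by total counts (Eda2r, and Zmat3 at -0.60). Leaving out each sample gave 0 to 1 with the threshold and 2 to 5 without. The same moved the other targets from 4 to between 1 and 6, and the count was 13 with no fold change threshold and 7 with the length correction and the replicate block together, an alternative added after the data were seen. The regulators had 7 and the relatives 3 calls with no fold change threshold. Signs turned for 3 genes that had not passed. Phlda3 was at -0.024 with total counts, -0.20 with the length correction and -0.21 with the replicate block as well, and ranged from -0.07 to 0.20 with samples left out. Cdkn1a was at -0.045, -0.015 and -0.016 in the same order, and ranged from -0.053 to 0.081. Mdm4 was at 0.056 with the length correction, with and without the block. Same-numbered samples deviated together only weakly (r = 0.165, 0.026 and 0.095), control replicate 2 did not correlate best with its own number, and the numbers were not taken as pairs. With the replicate block 1465 genes were called, and of the 10 genes 5 passed without and 1 with the fold change. Bax and Mdm4 passed under the block (adjusted p = 0.00276 and 0.0485, edgeR). With the length correction and the block together, Trp53inp1, Trp53inp2 and Trp53i13 passed (0.0433, 0.0273 and 0.0449), which they did not with the length correction alone. Counting error was larger for Pmaip1, with 37 to 75 counts, than for any other of the 10 genes.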
